A study of Mus musculus with 12 samples.

Results

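The genes described here are the nuclear-encoded subunits of the oxidative phosphorylation (OXPHOS) system, taken as the rows of the count tables whose symbol starts with Nduf plus a subunit letter and number, Sdh plus a, b, c or d, Uqcr, Cox4 to Cox8 or Atp5, leaving out symbols that contain -ps. This rule found 85 of 23282 rows. They hold 36 subunits of complex I, 4 of complex II, 8 of complex III, 19 of complex IV and 15 of complex V, while Ndufa4l2, Atp5s and Atp5sl matched by symbol only. Of the 85 genes, 79 had enough counts to be tested. RNA from C22 cells, a mouse lung club (Clara) cell line, was measured in 4 groups of 3 libraries by 3′ mRNA sequencing, in which each read comes from near the 3′ end of a transcript. NC cells had a negative control, siPdcd5 cells had a knockdown of Pdcd5, and each kind of cell was either left without TGF-β1 or given TGF-β1 at 20 ng/ml for 24 h. All groups were cells differentiated at the temperature that turns the immortalising gene off, and they had been starved of serum before the treatment. C22 is 1 immortalised clone from H-2Kb-tsA58 transgenic mice, and neither the siRNA of these libraries nor whether the 3 libraries of a group came from separate cultures is given, so p-values measure only the spread between these libraries, which may be technical.

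OXPHOS couples the oxidation of NADH and succinate to ATP synthesis across the inner mitochondrial membrane. Complex I (NADH dehydrogenase) and complex II (succinate dehydrogenase) pass electrons to ubiquinone, complex III passes them to cytochrome c, complex IV (cytochrome c oxidase) reduces oxygen, and complex V (ATP synthase) uses the proton gradient to make ATP. Most subunits are encoded in the nucleus, several with tissue-specific or hypoxia-linked isoforms, and the rest in mitochondrial DNA. The transcription factors NRF1, GABPA (an ETS factor) and YY1 and the coactivators PGC-1α (Ppargc1a) and PGC-1β (Ppargc1b) are known regulators of the nuclear-encoded genes.

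The promoter sequences show which of these factors' core letters stand before the subunit genes. RefSeq promoter windows (GRCm38.p6, 300 bases, 250 of them before the transcript start) were found for 70 of the 85 genes, giving 76 windows. On either strand, GCATGCGC, the core of the NRF1 site, was in 10 of the 76 windows (13.2%) and in 2.71% of all 32851 mouse windows of that length. CCGGAAG, an ETS core, was in 16 windows (21.1%, against 8.86% of all), and AAGATGGC, the YY1 core, was in 12 (15.8%, against 2.75%). At least 1 of these 3 cores was in 42.1% of the member windows and in 13.3% of all windows. TGACGTCA, a cyclic AMP response element, was in 5.26% against 1.79%. GGGCGG, the GC box, was in 39.5% against 35.7%, CCAAT in 42.1% against 37.4%, and TATAAA in 10.5% against 13.6%. The GC content of the windows was not matched. These matches describe letters in the windows and say nothing about binding. The 4 stretches below are those with 2 different cores of NRF1, ETS and YY1 between 100 bases before the start and the first 30 transcribed bases. They are written along the gene's strand, 5′ to 3′, with the cores in capitals, on either strand, and in Atp5k the capitals join overlapping NRF1 matches.
Uqcr11 (complex III, chr10:80406792-80406921, minus strand): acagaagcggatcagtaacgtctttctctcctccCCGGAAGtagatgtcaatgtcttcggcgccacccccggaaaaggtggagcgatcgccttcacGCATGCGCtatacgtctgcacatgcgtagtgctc
Sdhb (complex II, chr4:140961171-140961300, plus strand): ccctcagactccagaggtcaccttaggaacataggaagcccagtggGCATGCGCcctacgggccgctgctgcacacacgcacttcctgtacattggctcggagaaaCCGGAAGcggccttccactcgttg
Atp5j (complex V, chr16:84834947-84835076, minus strand): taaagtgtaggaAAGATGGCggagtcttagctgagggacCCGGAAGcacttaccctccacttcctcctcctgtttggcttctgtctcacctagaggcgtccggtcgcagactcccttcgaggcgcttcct
Atp5k (complex V, chr5:108434370-108434499, minus strand): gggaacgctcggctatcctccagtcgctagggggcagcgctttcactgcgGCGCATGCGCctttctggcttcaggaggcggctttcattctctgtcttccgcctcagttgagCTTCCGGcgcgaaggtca
Uqcr11, Sdhb and Atp5k hold an NRF1 core together with an ETS core, and Atp5j holds an ETS core together with a YY1 core. Atp5j overlaps Gabpa, which lies on the opposite strand.

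The libraries held 12809857 to 17714828 counts, of which the 85 genes took 1.39% to 1.61%. Levels are given as CPM, the count scaled to a fixed library size with TMM factors, so each is a share of a library's RNA, and fewer cells of a type cannot be told apart from less RNA per cell. Pdcd5, the targeted gene, was at 73.5, 65.8 and 65.1 CPM in NC and at 21.2, 19.96 and 22.1 in siPdcd5 cells, and at 66.3, 69.7 and 67.5 and 24.1, 21.8 and 26.3 with TGF-β1, and all 6 knockdown libraries were below all 6 controls. Of 7 club cell markers, Scgb3a2 and Cyp2f2 had no count and Scgb1a1 at most 1 count in a library, while Aldh1a1 (155 to 556 CPM) and Cbr2 (82.6 to 187) were present. The defining epithelial genes Epcam and Nkx2-1 also reached at most 1 count, whereas Krt8, Krt18 and Col1a1 were abundant. Of 6 fibroblast markers 5 passed the filter on low counts and Lum had at most 1 count. The summed level of the 6, most of it from Col1a1, was 2751 to 2921 CPM in NC and 5968 to 6615 with TGF-β1, and 1877 to 2341 in siPdcd5 and 4551 to 4743 with TGF-β1. The single markers did not move alike. With TGF-β1 in NC cells 3 of the 5 tested were called higher and Dcn lower (-2.08 on the log2 scale), and after knockdown without TGF-β1 Col1a2 (1.74) and Dcn (0.59) were called higher and Col1a1 lower (-0.47). The summed level of the club markers was 709 to 719 CPM in NC cells without and 314 to 426 with TGF-β1, and 387 to 463 without and 259 to 273 with it after knockdown. Of 5 basal cell markers only Krt14 was tested, and their sum was 10.4 to 12.4 CPM in NC cells without and 169 to 209.7 with TGF-β1, and 3.40 to 4.96 without and 75.2 to 88.5 with it after knockdown. The sum of 6 general epithelial markers, most of it from Krt8 and Krt18, was 674 to 697, 1239.7 to 1677, 547 to 699 and 1582 to 1645 CPM in the same order. Of the 3 tested, 2 were called higher with TGF-β1 in NC cells. The third was lower there (-0.58, edgeR unadjusted p under 0.05). The sum of 6 alveolar type 1 markers, of which Hopx had at most 1 count, was 835 to 911, 603 to 776, 551 to 715 and 631 to 649 CPM. The 5 tested did not move alike. With TGF-β1 in NC cells 2 were above and 3 below 0 (-0.94 to 0.27 on the log2 scale). After knockdown without TGF-β1 2 were again above and 3 below 0 (-0.80 to 0.49). The part of these markers in the results was not tested.

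NC + TGF-β1 replicate 2 stood apart in these genes before any comparison, and siPdcd5 replicate 1 differed from its group in many of the same genes. The median absolute deviation of a subunit gene from its group mean was 0.199 on the log2 scale in NC + TGF-β1 replicate 2, 0.186 in NC + TGF-β1 replicate 3 and 0.135 in siPdcd5 replicate 1, 0.126 and 0.113 in siPdcd5 replicates 2 and 3, and at most 0.0736 in the NC and siPdcd5 + TGF-β1 libraries and NC + TGF-β1 replicate 1. Over all tested genes it was 0.204, 0.159 and 0.161 in the 3 libraries named first. One component held 63.4% of the within-group variance of the 79 genes, with a score of 0.65 in NC + TGF-β1 replicate 2 and 0.32 in siPdcd5 replicate 1. Scores of the opposite sign and about the size of the latter were found in NC + TGF-β1 replicates 1 and 3 (-0.33 and -0.32) and siPdcd5 + TGF-β1 replicate 2 (-0.31), so siPdcd5 replicate 1 was not the only library at that distance. Atp5g3, 1 of 3 genes for subunit c of ATP synthase, showed the pattern, at 575, 932 and 526 CPM in NC + TGF-β1 and 1047, 642 and 675 in siPdcd5, against 673, 633 and 653 in NC and 700.4, 656 and 671 in siPdcd5 + TGF-β1. The same libraries were high for Ndufa4, an accessory subunit now placed in complex IV, at 55.1, 121 and 56.1 CPM in NC + TGF-β1 and 97.9, 62.5 and 64.6 in siPdcd5. They were low for Ndufa5, an accessory subunit of complex I, at 367, 234 and 447 and 208, 297 and 309 CPM.

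The direction of these deviations went with the base composition of the transcripts. Across 78 subunit genes with a GENCODE transcript, whose last 300 bases held 29.3% to 59.7% G and C, the correlation of GC content with the deviation from the group mean was -0.538 in NC + TGF-β1 replicate 2, -0.501 in siPdcd5 replicate 1 and -0.417 in siPdcd5 + TGF-β1 replicate 1. It was 0.536 in NC + TGF-β1 replicate 3 and 0.507 in siPdcd5 replicate 3. Over 11382 genes the same correlations were -0.261, -0.149, -0.107, 0.204 and 0.166. Deviations within a group sum to 0, the genes of a library share its preparation and depth, and genes are not independent replicates, so these values are a description. The correlation with transcript length (log scale) stayed between -0.126 and 0.167. The part of GC content in the differences between groups was not tested. Each count below is also given without NC + TGF-β1 replicate 2 and siPdcd5 replicate 1, an alternative chosen after the data were seen that leaves 2 libraries in each of their groups.

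**Figure D1:**
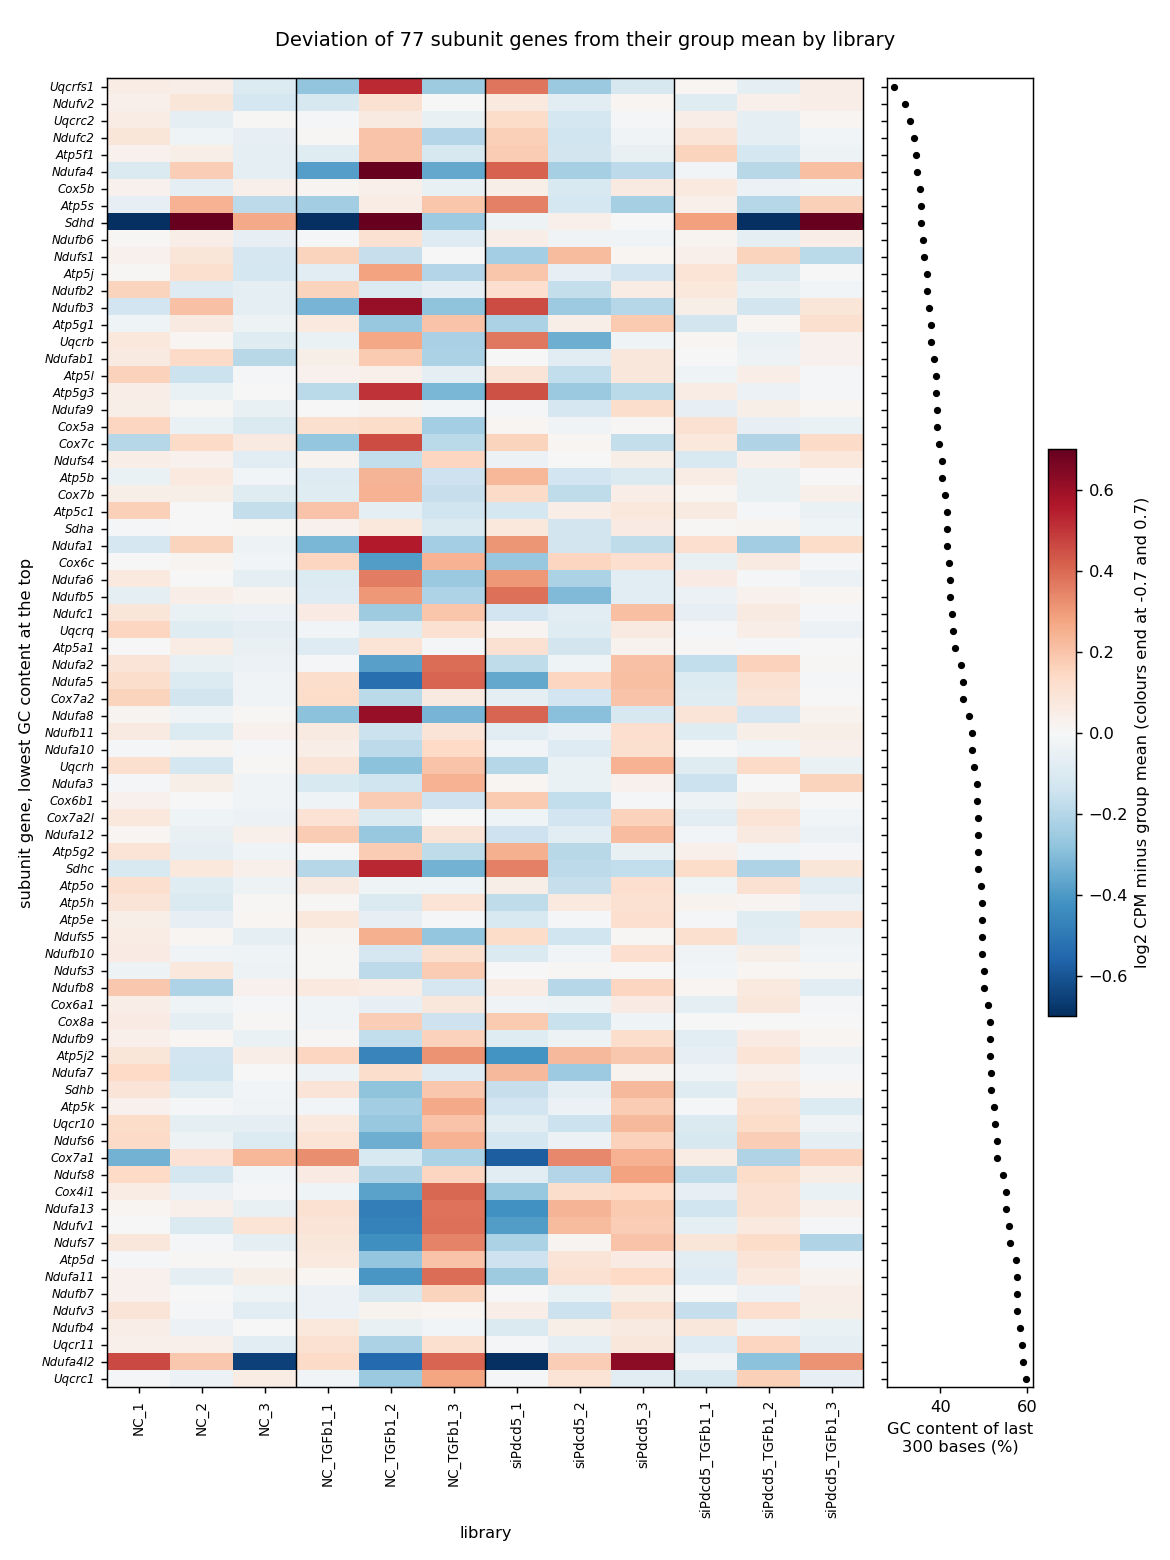
Deviation of the log2 CPM of 77 subunit genes (rows, ordered by the GC content of the last 300 bases of the transcript, lowest at the top) from the mean of their group in each of 12 libraries (columns); red is above and blue below the group mean, and the points on the right give the GC content in percent. NC + TGF-β1 replicate 2 and siPdcd5 replicate 1 are mostly red at the top and blue at the bottom, NC + TGF-β1 replicate 3 is the reverse, and Sdhd is irregular.

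The summed level of the OXPHOS subunits differed little between the groups. It was 14465 ± 493 CPM (SD, n = 3) in NC cells without and 14602 ± 545 with TGF-β1, and 15098 ± 713 without and 15332 ± 387 with it after knockdown. The mean was 0.944% higher with TGF-β1 in NC cells and 1.55% higher in siPdcd5 cells, and it was 4.38% higher in siPdcd5 than in NC cells without TGF-β1 and 5.01% higher with it. The libraries of the groups overlapped in each of these comparisons. Complex III had the largest of the differences with knockdown in TGF-β1-treated cells, 9.26%, from 1810.3 ± 165 to 1978 ± 105 CPM, and its libraries overlapped as well. The sum for complex II was 491 to 493 CPM in NC and 518 to 531 in NC + TGF-β1, a 6.47% difference without overlap. Its 4 genes did not move alike. Only 1 was above 0 on the log2 scale, with a median of -0.023 and values from -0.30 to 0.22. None of the 4 was called or without overlap. The sum for complex V was 1.54% lower with TGF-β1 in NC cells and 1.96% lower in siPdcd5 cells.

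**Figure D2:**
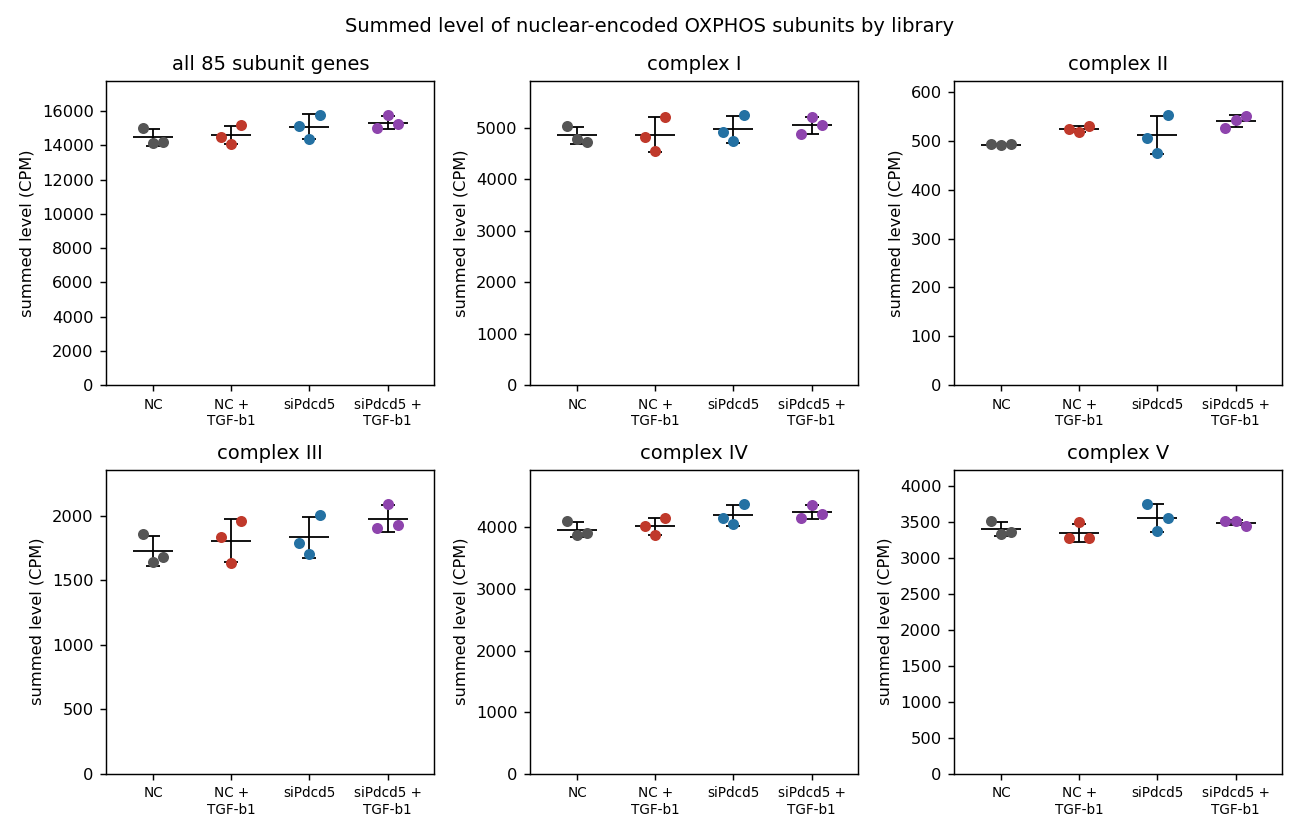
Summed level in CPM of all 85 subunit genes and of the subunits of complexes I to V in the 4 groups; each point is a library, and the lines give the mean and SD of 3 libraries. The y axes start at 0. The means differ by at most 9.26% in any of the 4 comparisons, and the points of the groups mostly overlap.

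The isoform genes of complex IV were expressed in their ubiquitous forms. Cox4i1 (515 to 883 CPM over the 12 libraries), Cox6a1 (610.3 to 707), Cox6b1 (283 to 369), Cox7a2 (457 to 611) and Cox8a (415 to 612) were all tested. Their partners known from other tissues were at or near 0, and none of them passed the filter on low counts. Cox4i2, the isoform of lung and of hypoxia, had at most 3 counts in a library, Cox6a2, the heart and muscle form, at most 14, and Cox6b2, the testis form, at most 7. Cox7b2, Cox8b and Cox8c had no count in any library. A total of 3 counts stood for 0.165 to 0.239 CPM, which covers counting error only. Cox7a1, the heart and muscle isoform of Cox7a2, was low but tested, at 1.40 to 5.18 CPM. All 13 subunits encoded in mitochondrial DNA were without a row in the tables and were not analysed here.

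TGF-β1 in NC cells asked which genes respond to the cytokine in cells with Pdcd5. Of the 79 subunit genes, 2 rose and none fell (2.53%), where 15.3% of all 12425 tested genes were called and 8.57% were called higher (edgeR quasi-likelihood test, Benjamini-Hochberg adjusted p under 0.05). At an unadjusted p under 0.05 there were 7 subunit genes, 2 higher and 5 lower, against 27.1% of all genes. Groups did not overlap for 9, 3 higher and 6 lower, against 29.6% of all genes. The median log2 fold change was -0.035 over the subunit genes and 0.005 over all genes. For 60 of the 79 (75.9%) the 95% interval of the log2 fold change lay within 0.5 either way, a 1.41-fold change, as it did for 40% of all genes.

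Uqcrq, a small accessory subunit of complex III (chr11:53427922-53430831, GRCm38, minus strand), rose with TGF-β1. It was at 420.3, 357 and 362 CPM in NC and 490.1, 467 and 533 in NC + TGF-β1. Every treated library was above every untreated one, with a log2 fold change of 0.39 (SE 0.090) and an edgeR adjusted p of 0.00752. The other called gene, Ndufa4l2, matched by symbol only and was counted in no complex. It is the paralog of Ndufa4 that is induced in hypoxia (chr10:127514967-127517154, plus strand), and it rose from 6.31, 5.19 and 2.84 CPM to 13.5, 8.37 and 16.3. The groups did not overlap, and the log2 fold change was 1.41 (SE 0.35) with an edgeR adjusted p of 0.0113, which became 0.0645 without NC replicate 3. Its 3′ end shares 32 bases with the end of Shmt2 on the opposite strand, and Shmt2, a mitochondrial serine hydroxymethyltransferase, was at 51.2, 46.4 and 49.4 CPM in NC and 94.99, 94.4 and 91.5 in NC + TGF-β1. Whether counting used the strand is not given, so reads over these bases cannot be told apart.

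Subunits that were lower at an unadjusted p under 0.05 and did not pass the adjusted test included Ndufs3 (-0.26, 95% interval -0.47 to -0.048), Ndufb11 (-0.24, -0.44 to -0.038) and Ndufa6 (-0.34, -0.67 to -0.020) of complex I, and Atp5s (-0.62, -1.14 to -0.11), a coupling factor. Ndufs7 had the lowest value of the core subunits, -0.33 (95% interval -0.69 to 0.032). Of the 7 core subunits of complex I, 2 were above (28.6%, against 50.8% of all genes) and 5 below 0, with a median of -0.087.

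The catalytic, core and structural subunits listed here, unlike Ndufs3 above, had 95% intervals that included 0. The log2 fold change was -0.050 (95% interval -0.33 to 0.23) for Ndufs1 and 0.10 (-0.30 to 0.49) for Ndufv1, which carry iron-sulfur clusters and the NADH site of complex I. It was -0.044 (-0.22 to 0.13) for Sdha, the flavoprotein of complex II, and 0.22 (-0.045 to 0.49) for its iron-sulfur partner Sdhb. Uqcrc1, a core protein of complex III, had 0.18 (-0.089 to 0.44) and Uqcrfs1, the Rieske protein, -0.13 (-0.55 to 0.28). None of these 6 intervals left out 0, and that of Uqcrfs1 was the widest. Cox5a, a structural subunit of complex IV, had -0.062 (-0.29 to 0.16), and the catalytic pair of the ATP synthase head, Atp5a1 and Atp5b, had -0.14 (-0.32 to 0.046) and -0.058 (-0.31 to 0.19). Among the isoform genes the value was 0.17 for Cox4i1, 0.10 for Cox6a1, -0.010 for Cox6b1, 0.28 for Cox7a1, -0.013 for Cox7a2 and -0.035 for Cox8a. The genes for subunit c gave 0.19 (Atp5g1), -0.21 (Atp5g2) and 0.055 (Atp5g3), none past the test.

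The count in NC cells depended on 1 library and on the scaling. Without NC + TGF-β1 replicate 2 there were 12 called subunit genes, 7 higher and 5 lower, where 20.2% of all genes were called. Without that library and siPdcd5 replicate 1 there were 30 of the 79, 13 higher and 17 lower. Unlike with all libraries, this was a larger share than the 29.1% of all genes called without the pair. In that fit Uqcrq and Ndufa4l2 were higher (0.42 and 1.63), as were Sdhb (0.34), Cox4i1 (0.33) and Atp5g1 (0.31), while Uqcrfs1 (-0.46), Ndufa4 (-0.32), Atp5g2 (-0.31) and Atp5g3 (-0.25) were lower. Ndufa4 and Atp5g3 thus changed sign with that choice. The median over the subunit genes stayed at -0.046. With library totals in place of TMM 5 subunit genes were called, 2 higher and 3 lower, where 16.1% of all genes were called. With quantile normalization 4 were, 2 higher and 2 lower, where 15.3% of all genes were called.

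**Figure D3:**
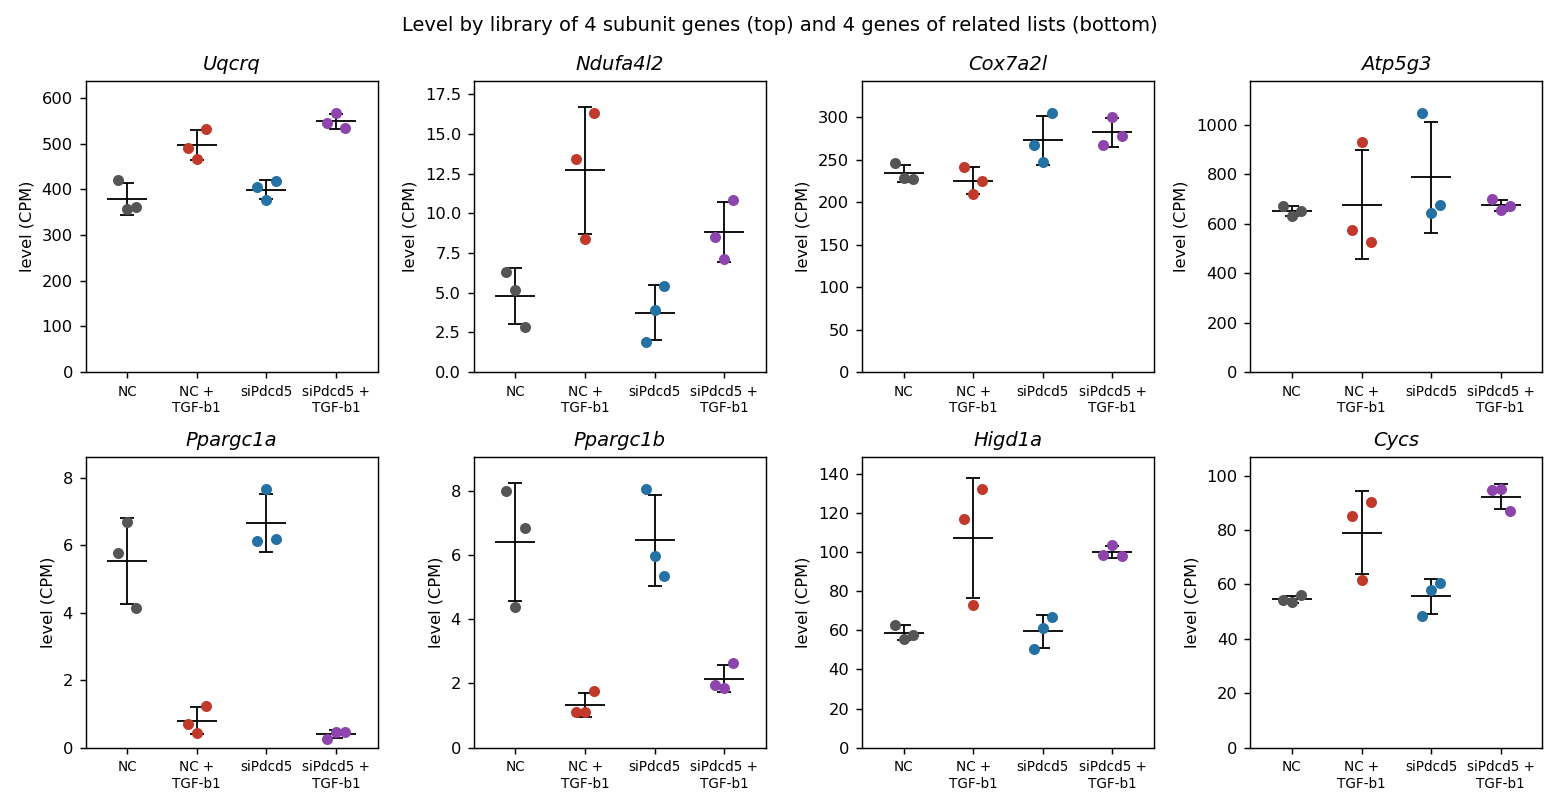
Level in CPM of 4 subunit genes (Uqcrq, Ndufa4l2, Cox7a2l, Atp5g3; top) and 4 genes of related lists (Ppargc1a, Ppargc1b, Higd1a, Cycs; bottom) in the 4 groups; each point is a library, and the lines give the mean and SD of 3 libraries. Uqcrq and Ndufa4l2 are higher and Ppargc1a and Ppargc1b lower in all 6 treated libraries, and for Atp5g3 only NC + TGF-β1 replicate 2 and siPdcd5 replicate 1 lie apart from the other 10 libraries.

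TGF-β1 in siPdcd5 cells gave the same 2 calls. Of the 79 subunit genes, 2 rose and none fell, where 16.1% of all genes were called and 8.5% were called higher. At an unadjusted p under 0.05 there were 5, 3 higher and 2 lower, against 28.9% of all genes, and groups did not overlap for 14, 10 higher and 4 lower, against 36.1%. The median was 0.030 over the subunit genes and -0.026 over all genes. With library totals these were -0.024 and -0.082, and with quantile normalization -0.043 and -0.0057, so the sign over the subunit genes turned with the scaling. For 58 genes (73.4%, against 39.3% of all genes) the 95% interval lay within 0.5 either way.

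Uqcrq was at 404, 377 and 417 CPM in siPdcd5 and 546, 566 and 534 in siPdcd5 + TGF-β1. All 3 treated libraries were above the untreated ones, with a log2 fold change of 0.46 (SE 0.089) and an edgeR adjusted p of 0.00244. Ndufa4l2 rose from 1.92, 3.91 and 5.41 to 8.52, 7.10 and 10.8 CPM, again without overlap, with a log2 fold change of 1.22 (SE 0.35) and an edgeR adjusted p of 0.0283. This second call was lost when siPdcd5 replicate 1 (edgeR adjusted p = 0.077), siPdcd5 replicate 2 (0.0717), siPdcd5 + TGF-β1 replicate 1 (0.0683) or siPdcd5 + TGF-β1 replicate 3 (0.114) was left out. Shmt2 was at 46.9, 40.7 and 48.7 CPM in siPdcd5 and 82.9, 82.3 and 87.5 with TGF-β1.

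The third smallest p was that of Ndufb2, an accessory subunit in the membrane arm of complex I, at 45.4, 37.3 and 43.4 CPM in siPdcd5 and 52.95, 48.5 and 49.7 with TGF-β1. The treated libraries lay above the untreated ones, but the log2 fold change of 0.26 (SE 0.11) did not pass the test (edgeR adjusted p = 0.126). Cox8a of complex IV had -0.24 (95% interval -0.46 to -0.023) and Atp5g2 -0.25 (-0.50 to -0.00075), both lower without overlap and past an unadjusted p of 0.05 only. The values of Ndufs1 (0.22), Ndufv1 (-0.090), Sdha (0.034), Sdhb (0.22), Uqcrc1 (-0.089), Uqcrfs1 (-0.24), Cox5a (0.10), Atp5a1 (0.026) and Atp5b (-0.0015) did not pass the test. Among the isoform genes of complex IV Cox7a1 (0.52) had the widest interval, -0.081 to 1.12. Without NC + TGF-β1 replicate 2 and siPdcd5 replicate 1 6 subunit genes were called, 5 higher and 1 lower, where 24.9% of all genes were called.

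**Figure D4:**
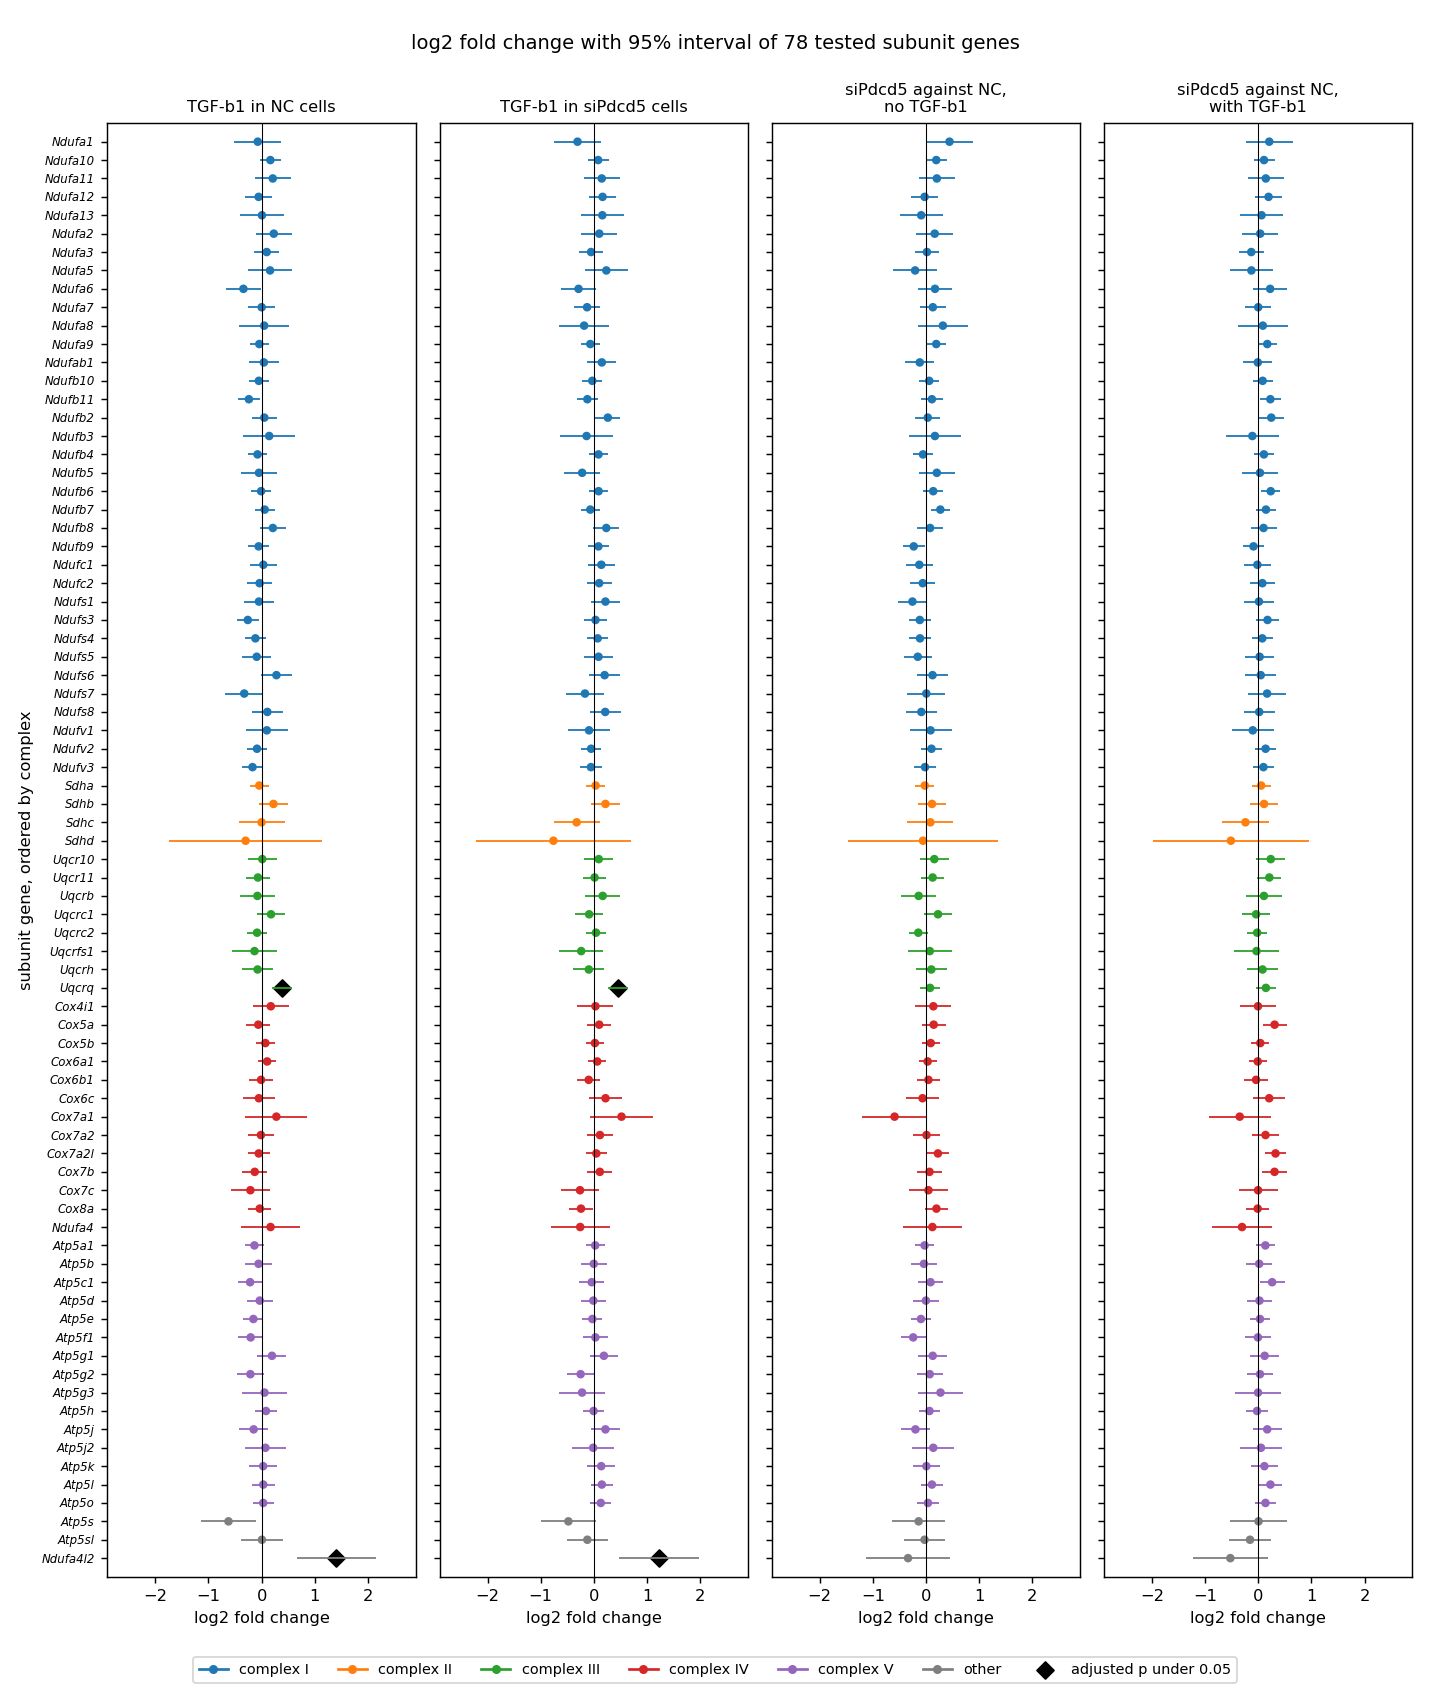
log2 fold change (points) with its 95% interval (lines) of 78 of the 79 tested subunit genes, ordered and coloured by complex, in the 4 comparisons; black diamonds mark an edgeR adjusted p under 0.05. Uqcrq and Ndufa4l2 carry the only diamonds, in both comparisons with TGF-β1, and Sdhd has the widest intervals.

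Knockdown of Pdcd5 without TGF-β1 asked what the loss of this gene changes in untreated cells. None of the 79 subunit genes was called by DESeq2, where 5.75% of all genes were, and none by edgeR, where 3.44% were. At an unadjusted p under 0.05 there were 6, 4 higher and 2 lower, against 15.7% of all genes, and groups did not overlap for 10, 8 higher and 2 lower, against 23.1%. There were 50 genes above (63.3%, against 53.8% of all genes) and 29 below 0. The median log2 fold change was 0.059 against 0.022 over all genes. With 1 library left out the median ran from 0.0068 (siPdcd5 replicate 3) and 0.011 (siPdcd5 replicate 1) to 0.085 (NC replicate 1). It was 0.095 with library totals (0.058 over all genes) and 0.091 with quantile normalization (0.016 over all genes). For 63 genes (79.7%, against 49.6% of all genes) the 95% interval lay within 0.5 either way.

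The smallest p was that of Ndufb7, an accessory subunit of complex I on the intermembrane side, at 89.96, 88.2 and 86.3 CPM in NC and 106, 103 and 109 in siPdcd5. All 3 knockdown libraries were higher, with a log2 fold change of 0.27 (SE 0.086) and an edgeR adjusted p of 0.119, and it was called with library totals. Ndufb9, another accessory subunit, was lower in all 3, at 307, 302 and 289 and 239, 248 and 277 CPM, with -0.23 (SE 0.10) and an edgeR adjusted p of 0.246. Neither passed the test. Cox7a2l, a relative of Cox7a2 that joins complexes III and IV into supercomplexes, was at 245, 228 and 227 CPM in NC and 267, 248 and 304 in siPdcd5. Its knockdown libraries were all higher, with a log2 fold change of 0.22 (SE 0.095) and an edgeR adjusted p of 0.264.

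The other members at an unadjusted p under 0.05 were Ndufa1 (0.44, 95% interval 0.0033 to 0.88), Ndufa9 (0.19, 0.0094 to 0.37) and Atp5f1 (-0.24, -0.48 to -0.0035). Ndufa1 and Ndufa9 are accessory subunits of complex I, and Atp5f1 is the b subunit in the stalk of ATP synthase. The catalytic and core subunits, and Cox5a for complex IV, gave log2 fold changes of -0.26 (Ndufs1), 0.084 (Ndufv1), -0.024 (Sdha), 0.11 (Sdhb), 0.22 (Uqcrc1), 0.070 (Uqcrfs1), 0.14 (Cox5a), -0.027 (Atp5a1) and -0.039 (Atp5b). None of these 9 was past the test. The isoform genes lay between -0.59 (Cox7a1) and 0.27 (Atp5g3). Without NC + TGF-β1 replicate 2 and siPdcd5 replicate 1 6 subunit genes were called, 3 higher and 3 lower, where 9.09% of all genes were called, and the median was 0.0086.

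Knockdown in TGF-β1-treated cells asked how the loss of Pdcd5 alters cells under the cytokine. DESeq2 called 1 of the 79 subunit genes, Cox7a2l, and 3.69% of all genes. None of the 79 was called by edgeR, where 1.55% of all genes were. At an unadjusted p under 0.05 there were 8 (10.1%), all higher. Of all 12425 genes, 690 passed higher and 1021 lower, 13.8% together. Groups did not overlap for 13 (16.5%), all higher. Of all genes, 1098 were higher without overlap and 1245 lower, 18.9% together. There were 54 genes above (68.4%, against 46.4% of all genes) and 25 below 0. The median was 0.062, against -0.017 over all genes, 0.10 without NC + TGF-β1 replicate 3, 0.12 with library totals (0.033 over all genes) and 0.11 with quantile normalization (0.013 over all genes). For 61 genes (77.2%, against 50.4% of all genes) the 95% interval lay within 0.5 either way. Complex I had 28 of 36 values above 0 (77.8%), complex V 12 of 15 (80%) and complex IV 6 of 13 (46.2%, near the share of all genes).

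Cox7a2l had the smallest p here, at 241, 209 and 225 CPM in NC + TGF-β1 and 267, 301 and 278 in siPdcd5 + TGF-β1. Its groups did not overlap, and the log2 fold change was 0.32 (SE 0.095) with an edgeR adjusted p of 0.118. It was thus higher in all 6 knockdown libraries than in the controls of the same treatment. Cox5a of complex IV was at 239, 241 and 187 and 296, 265 and 266 CPM, with 0.31 (SE 0.11) and an edgeR adjusted p of 0.194. Cox7b, also of complex IV, was at 160.4, 201 and 152 and 214, 205 and 217 CPM, with 0.31 (SE 0.11) and an edgeR adjusted p of 0.216, which was 0.0247 without NC + TGF-β1 replicate 2. All 3 genes were higher in every knockdown library and none passed the test.

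The other 5 members at an unadjusted p under 0.05 were Ndufb2 (0.24, 95% interval 0.0080 to 0.48), Ndufb6 (0.23, 0.050 to 0.42) and Ndufb11 (0.23, 0.026 to 0.43) of the membrane arm of complex I, and Atp5c1 (0.26, 0.026 to 0.50) and Atp5l (0.23, 0.016 to 0.44) of complex V. Atp5c1 is the rotating gamma subunit, and Atp5l is the g subunit of the membrane part. The values of the catalytic and core subunits were 0.013 (Ndufs1), -0.10 (Ndufv1), 0.054 (Sdha), 0.11 (Sdhb), -0.040 (Uqcrc1), -0.033 (Uqcrfs1), 0.13 (Atp5a1) and 0.017 (Atp5b), none past the test. The gene furthest below 0 was Ndufa4l2 at -0.52 (95% interval -1.23 to 0.18). Without NC + TGF-β1 replicate 2 and siPdcd5 replicate 1, 12 of the 79 subunit genes were called, 9 higher and 3 lower. This was a larger share than the 8.43% of all genes called. Among the 12, Cox7a2l (0.28), Cox5a (0.37), Cox7b (0.44), Atp5g3 (0.30) and Atp5j (0.33) were higher, and Ndufa4l2 (-0.75) and Ndufv1 (-0.30) were lower.

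The interaction, which sets the response of siPdcd5 cells to TGF-β1 against that of NC cells, was called for no subunit gene and for 0% of all genes (edgeR; DESeq2 called 13 of all genes and none of these). No subunit gene had an unadjusted p under 0.05, against 5.13% of all genes. The median difference was 0.069, and leaving out 1 library gave 0.017 (siPdcd5 replicate 2) to 0.11 (NC replicate 3). The smallest p were those of Ndufs3, a core subunit of complex I, with 0.29 (SE 0.14) on the log2 scale, Atp5j, a stalk subunit of ATP synthase, with 0.37 (SE 0.18), and Cox7b, with 0.24 (SE 0.16). Ndufs3 was at 46.6, 50.2 and 46.6 CPM in NC cells without and 39.9, 34.9 and 44.96 with TGF-β1, and at 43.99, 44.3 and 43.9 without and 44.4, 45.5 and 45.2 with it after knockdown. It was lower with TGF-β1 in NC and slightly higher in siPdcd5 cells, in both without overlap, and the difference of the responses did not pass the test (edgeR adjusted p = 0.951). Without NC + TGF-β1 replicate 2 and siPdcd5 replicate 1, 6 of the 79 subunit genes were called, 4 higher and 2 lower. This was a larger share than the 1.59% of all genes called. The 6 were Atp5j, Atp5j2, Cox7b, Ndufa6, Ndufv1 and Uqcrb.

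The spread within groups differed among the subunits. The median within-group SD of log2 CPM was 0.151 over the 79 subunit genes and 0.195 over all genes, whose levels were not matched. The SD was above 0.3 for 7 subunits, of which Sdhd, a membrane anchor of complex II, had the largest at 1.19. Sdhd was at 7.83, 25.4 and 18.7 CPM in NC cells without and 3.58, 30.4 and 8.04 with TGF-β1, and at 16.2, 17.1 and 16.6 without and 8.46, 2.01 and 18.8 with it after knockdown. Its levels ranged widely within 3 of the 4 groups, and its 95% interval for TGF-β1 in NC cells was -1.74 to 1.13. The other 6 were Ndufa4l2, Ndufa4, Ndufb3, Cox7a1, Ndufa8 and Ndufa1. The 3′ ends of 11 of the 83 genes with an annotated GENCODE position overlap another protein-coding gene, among them Cox4i1, Ndufb2 and Ndufa4l2.

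Among regulators of mitochondrial biogenesis, both PGC-1 coactivators fell after TGF-β1. Of 25 tested, 1 was called higher and 4 lower in NC cells (20%, against 15.3% of all genes), and 1 higher and 2 lower in siPdcd5 cells (12%, against 16.1%), shares near those of all genes. Ppargc1a, the coactivator PGC-1α, was at 5.78, 6.68 and 4.15 CPM in NC and 0.717, 0.448 and 1.24 in NC + TGF-β1, and at 6.13, 7.66 and 6.18 in siPdcd5 and 0.268, 0.463 and 0.471 with TGF-β1. It fell in both, with log2 fold changes of -2.77 (SE 0.33) and -4.04 (SE 0.35) and edgeR adjusted p of 3e-05 and 2.03e-06. Treated levels of Ppargc1a in siPdcd5 cells were near the 0.201 to 0.231 CPM that 3 counts stood for there. The size of its fall in these cells thus rests on few counts. Its relative Ppargc1b was at 7.98, 4.38 and 6.83 and 1.11, 1.12 and 1.75 CPM in NC cells without and with TGF-β1, and at 8.04, 5.95 and 5.34 and 1.95, 1.85 and 2.62 in siPdcd5 cells. It fell as well, by 2.25 and 1.58 on the log2 scale (edgeR adjusted p = 9.94e-05 and 0.00108). The third member of this family, Pprc1, rose, with 0.40 (SE 0.12) and 0.42 (SE 0.12) and edgeR adjusted p of 0.0364 and 0.0286, but its calls held in only 10 and 16 of 22 alternatives (adjusted p up to 0.136 and 0.116). In the same comparisons the subunit genes had medians of -0.035 and 0.030.

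Of the transcription factors themselves, Yy1 fell with TGF-β1 in NC cells, from 168, 167 and 158 to 126, 133 and 127 CPM (-0.35, SE 0.077, edgeR adjusted p = 0.00507). It was also lower after knockdown without TGF-β1, at 131, 133 and 127 CPM (-0.34, SE 0.076, edgeR adjusted p = 0.0264), and these 2 comparisons share the NC libraries. The call with TGF-β1 held in 22 of 22 alternatives and that after knockdown in 13 (adjusted p up to 0.117). In siPdcd5 + TGF-β1 it was at 127, 128 and 117 CPM, so that NC without TGF-β1 was the only group above the rest. Rxra, a nuclear receptor that pairs with PPARs, fell with TGF-β1 in NC cells (-0.48, SE 0.13, edgeR adjusted p = 0.0223, called in 19 of 22 alternatives). Nrf1 (0.033), Gabpa (0.24), Esrra (-0.10) and the mitochondrial factor Tfam (-0.12) did not pass the test there.

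Cycs, cytochrome c, which carries electrons from complex III to IV, was at 54.4, 53.5 and 55.97 CPM in NC and 85.03, 61.7 and 90.2 in NC + TGF-β1. It rose by 0.53 in NC and 0.73 in siPdcd5 cells on the log2 scale (edgeR adjusted p = 0.0108 and 0.00112). This was the only called rise among 8 electron carriers and subunits outside the symbol rule. Of the 8, 12.5% were called in NC (15.3% of all genes) and 25% in siPdcd5 cells (16.1% of all genes). Etfb, a subunit of the electron transfer flavoprotein, fell in siPdcd5 cells (-0.34, SE 0.10, edgeR adjusted p = 0.0358, called in 16 of 22 alternatives). Of 36 assembly factors of complexes II to V, 1 was called higher and 4 lower in NC cells (13.9%, against 15.3% of all genes), and 1 higher and 3 lower in siPdcd5 cells (11.1%, against 16.1%). Higd1a, a hypoxia-induced protein that binds complex IV, rose from 62.9, 55.4 and 57.7 to 117, 73.1 and 132 CPM in NC cells and from 50.5, 60.9 and 66.96 to 98.7, 103 and 97.7 in siPdcd5 cells, without overlap (0.87 and 0.75 on the log2 scale). Uqcc3, an assembly factor of complex III, fell (-0.54 and -0.45), and Coa4 fell in NC cells (-0.90, called in 22 of 22 alternatives). The complex IV factor Cox19 (-0.38 and -0.38) was called in only 9 and 10 of 22 alternatives, and Cmc1 in siPdcd5 cells (-0.54) in only 8, with adjusted p up to 0.132, 0.157 and 0.209. Of 15 complex I assembly factors none was called in NC cells (2 at an unadjusted p under 0.05), against 15.3% of all genes. In siPdcd5 cells Ndufaf2 was called higher (6.67%, against 16.1% of all genes). Its log2 fold change was 0.34 (edgeR adjusted p = 0.0444), but the call held in only 10 of 22 alternatives (adjusted p up to 0.171).

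Of 20 TCA cycle genes, Pdha1 (-0.38) and Idh2 (-0.29) fell with TGF-β1 in NC cells (10%, against 15.3% of all genes), and Idh2 (-0.34) in siPdcd5 cells (5%, against 16.1%). The call of Pdha1 held in 22 of 22 alternatives, and that of Idh2 in 12 in NC and 19 in siPdcd5 cells (adjusted p up to 0.125 and 0.0858, edgeR, DESeq2 or limma). Of 25 genes of mitochondrial import and the inner membrane, 1 was called in each of the 4 comparisons (4%, against 15.3%, 16.1%, 3.44% and 1.55% of all genes), and it was Timm8a1, a small chaperone of the intermembrane space. It was at 18.5, 14.4 and 13.6 CPM in NC cells without and 24.8, 21.00 and 24.1 with TGF-β1, and at 23.9, 19.6 and 24.5 without and 34.1, 34.9 and 36.8 with it after knockdown. Its log2 fold changes were 0.59 and 0.64 for TGF-β1 and 0.55 and 0.60 for knockdown, with edgeR adjusted p of 0.0079, 0.00362, 0.0407 and 0.0395. The calls held in 21 and 22 of 22 alternatives for TGF-β1, but in 12 and 11 for knockdown, where the adjusted p reached 0.195 and 0.159. Of 6 adenine nucleotide and phosphate carriers, Vdac3, a channel of the outer membrane, rose with TGF-β1 in siPdcd5 cells (0.35, called in 18 of 22 alternatives). That is 16.7% of the list, against 16.1% of all genes. No other gene of these lists was called after knockdown except Yy1.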

How the data were processed

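RNA of C22 cells was measured by QuantSeq 3′ mRNA sequencing in 12 libraries, 3 for each of 4 groups taken from the labels. The authors aligned single-end reads to mm10 with Bowtie2, counted unique and multiple alignments with Bedtools, and deposited whole-number counts per gene symbol, without normalization. With multiple alignments counted, reads of a subunit and of a near-identical copy could be assigned to either.

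Counts were tested with R 4.3.3 and edgeR 4.0.16. Genes were kept by filterByExpr (minimum count 10), which left 12425 of 23282 rows, libraries were scaled by TMM, and 1 quasi-likelihood model was fitted to the 4 groups, with a threshold of 0.05 on Benjamini-Hochberg adjusted p over all tested genes. SE is the absolute log2 fold change over the square root of F, and 95% intervals use its t quantile with 14.07 degrees of freedom. log2 CPM used a prior count of 2. The fit was tested on simulated data. Alternatives were upper-quartile factors, DESeq2 1.42.0 size factors and its Wald test, library totals, quantile normalization with limma 3.58.1, no filter, a minimum of 10 counts per library, a fit to the 6 libraries of a comparison, a replicate block, each library left out, and, chosen after seeing the data, 2 libraries left out together.

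The members and lists were chosen with earlier results of these data known. Text names, per comparison, called members or the 3 with the smallest p, fixed isoform and catalytic subunits, and at most 4 called genes of each other list. Other genes were named after their values were seen, and the values of 1 member are not reported here. Gene positions are those of GENCODE M21 (GRCm38), and promoter sequences those of RefSeq (GRCm38.p6). Intervals of fold changes rest on the spread between libraries, and floors of 3 counts cover counting error only.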

Additional observations from a re-analysis of the deposited data

How the results depend on the processing

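Uqcrq kept its call with TGF-β1 in both cell states under all 22 alternatives, with log2 fold changes from 0.29 to 0.47 in NC and from 0.35 to 0.49 in siPdcd5 cells. Ndufa4l2 kept its call in 21 of 22 in NC and 18 of 22 in siPdcd5 cells, Ppargc1a in all 21 that tested it and Ppargc1b in all 22. Leaving out 1 library at a time gave 1 to 12 called subunit genes for TGF-β1 in NC cells and 1 to 2 in siPdcd5 cells. It gave 0 for knockdown without TGF-β1, 0 to 1 with it and 0 for the interaction. Of all genes, 11% to 20.2%, 10.9% to 21.9%, 1.32% to 5.28%, 0.579% to 2.55% and 0% to 0.0158% were called in these fits. The medians over the subunit genes then ran from -0.044 to -0.0073, 0.018 to 0.054, 0.0068 to 0.085, 0.060 to 0.10 and 0.017 to 0.11 in the same order. Library totals gave 5 called subunit genes, against 16.1% of all genes, and a median of -0.10 for TGF-β1 in NC cells. They gave a median of -0.024 in siPdcd5 cells and of 0.12 for knockdown with TGF-β1. For knockdown without TGF-β1 they gave 1 called subunit gene, against 3.07% of all genes. Quantile normalization gave 4 called subunit genes, against 15.3% of all genes, and a median of -0.10 for TGF-β1 in NC cells. Its medians were -0.043 in siPdcd5 cells and 0.11 for knockdown with TGF-β1. The Wald test of DESeq2 called 1 subunit gene for knockdown with TGF-β1, against 3.69% of all genes. Without NC + TGF-β1 replicate 2 and siPdcd5 replicate 1 the counts were 30, 6, 6, 12 and 6 in the order above, the median for knockdown without TGF-β1 was 0.0086, and signs turned for Ndufa4 (-0.32) and Atp5g3 (-0.25) with TGF-β1 in NC cells and for Atp5g3 (0.30) for knockdown with TGF-β1; the cause was not tested. Same-numbered libraries of different groups deviated together (correlation over 0.1) in 6 of 18 pairs, so the numbers were not taken to pair the libraries. The replicate block gave 2, 2, 0, 0 and 0 called subunit genes, and medians of -0.035, 0.031, 0.064, 0.068 and 0.071. Over all genes, knockdown without TGF-β1 gave 427 calls against 714 with DESeq2, 167 to 667 with 1 library left out (lowest without NC replicate 2, highest without NC + TGF-β1 replicate 2) and 1146 without the pair of libraries. Knockdown with TGF-β1 gave 192 against 458 with DESeq2, 44 from its 6 libraries alone, 107 with the replicate block, 73 to 322 with 1 library left out (siPdcd5 + TGF-β1 replicate 3 and NC + TGF-β1 replicate 2) and 1062 without the pair. TGF-β1 gave 1906 calls in NC and 2002 in siPdcd5 cells, against 3663 and 3139 without the pair, and the interaction 0 against 13 with DESeq2, 2 without NC + TGF-β1 replicate 2 and 200 without the pair. With 3 libraries a group, 58 to 63 of the 79 subunits had an interval within 0.5 on the log2 scale in the 4 comparisons, and the others are less precisely known.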
